A study of Mus musculus with 8 samples.

Results

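The 36 genes described here code for the contractile and cytoskeletal apparatus of myofibroblasts: 4 actins, 12 proteins that bind the thin filament, 6 myosin chains and their kinase, 4 actin crosslinkers, 8 adhesion proteins and 2 intermediate filament proteins. They were chosen by name among the 34399 gene symbols of the count tables, with earlier results of these data known. All 36 were found, and all passed the filter on low counts in every comparison.

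RNA was sequenced from GFP-positive fibroblasts that had been flow-sorted out of mouse ventricles. The hearts were taken 4 weeks after transverse aortic constriction (TAC), a surgical narrowing of the aorta that loads the heart with pressure. The double knockout (DKO) of Smad2/3, libraries HK15 and HK16, carried loxP-targeted Smad2 and Smad3, the signal carriers below the TGFβ receptors, and was set against Postn-Cre control libraries HK3 and HK4. Tgfbr1/2 DKO libraries HK2 and HK4 carried loxP-targeted Tgfbr1 and Tgfbr2, the TGFβ receptors, and were set against Tcf21-Cre control libraries HK6 and HK7. All groups had a tamoxifen-dependent Cre (MerCreMer) knocked into Postn, which fibroblasts switch on after injury, or into Tcf21, which marks the resident ones, and the R26eGFP reporter, which marks any cell in which Cre has acted. All mice received tamoxifen at 100 mg/kg on 2 days and then in chow at 40 mg/kg, and were 8 to 10 weeks old at TAC.

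Sequencing run, Cre driver and targeted genes all change together between the comparisons and cannot be told apart. Library totals ran from 21477646 to 32594474 counts, at which 3 counts correspond to 0.092 to 0.14 CPM (a library's counts scaled to a common total). The labels do not say whether the 2 libraries of a group came from separate animals, so each p-value measures the spread between these libraries only. Gene totals did not show the deletions: Smad2 was at -0.19 and Smad3 at -0.26 in Smad2/3 DKO libraries, Tgfbr1 at -0.24 and Tgfbr2 at 0.25 in Tgfbr1/2 DKO libraries (log2 fold changes, lowest adjusted p = 0.533). A gene total does not separate deleted exons from the rest, so the group labels were not checked by it.

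Fibroblasts that become myofibroblasts build stress fibres, bundles of actin and non-muscle myosin that pull on the matrix through focal adhesions. Smooth muscle actin, the product of Acta2, is built into these fibres and is the usual marker of the state. Many contractile genes carry a CArG box in their promoters, the site bound by serum response factor (SRF). The SRF cofactors MRTF-A and MRTF-B enter the nucleus when free actin monomers run low. TGFβ is known to raise the same genes in cultured fibroblasts.

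Promoters are printed for 3 genes that were higher in Tgfbr1/2 DKO libraries, because the CArG box is a known element of many contractile gene promoters. A CArG box was counted only in the exact form CCWWWWWWGG, where W is A or T, so variant sites were not counted. Of the 7 higher genes with a promoter window, Actg1 and Cnn2 held this exact form. Acta2, Tpm2, Tpm4, Myh9 and Flna did not. Each window runs from 250 bases before to 50 bases after the RefSeq start on GRCm38.p6, written along the gene's strand. The capitals mark a CArG box in Actg1 (chr11:120348446-120348745, minus strand) and Cnn2 (chr10:79988350-79988649, plus strand). In Acta2 (chr19:34255324-34255623, minus strand) they mark the 2 stretches that differ from the exact form by 1 base.
Actg1: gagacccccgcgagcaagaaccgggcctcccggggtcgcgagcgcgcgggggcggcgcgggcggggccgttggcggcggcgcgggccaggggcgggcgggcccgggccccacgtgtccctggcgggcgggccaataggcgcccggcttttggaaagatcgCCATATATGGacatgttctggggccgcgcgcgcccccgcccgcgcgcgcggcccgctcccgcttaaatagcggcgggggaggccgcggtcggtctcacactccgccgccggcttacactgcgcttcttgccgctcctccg
Cnn2: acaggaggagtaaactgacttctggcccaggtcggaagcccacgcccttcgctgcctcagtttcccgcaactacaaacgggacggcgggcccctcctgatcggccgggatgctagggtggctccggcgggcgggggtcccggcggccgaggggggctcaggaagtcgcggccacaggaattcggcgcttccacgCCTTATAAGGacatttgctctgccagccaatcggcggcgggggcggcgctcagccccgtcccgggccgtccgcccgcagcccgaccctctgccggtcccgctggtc
Acta2: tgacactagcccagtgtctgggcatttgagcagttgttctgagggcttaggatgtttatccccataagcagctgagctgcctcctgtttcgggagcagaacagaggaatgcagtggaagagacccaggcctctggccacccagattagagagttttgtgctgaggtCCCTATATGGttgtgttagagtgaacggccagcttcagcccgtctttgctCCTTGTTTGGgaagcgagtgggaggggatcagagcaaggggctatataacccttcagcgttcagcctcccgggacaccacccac
The box began 90 bases before the start in Actg1 and 56 bases before it in Cnn2. In Acta2 the near matches began 84 and 34 bases before the start.

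Of the 36 genes, 31 had such a promoter window in RefSeq. A CArG box of the exact form, which is the same read from either strand, was held by 5 of them: Actg1, Cnn2, Vcl, Myl6 and Myl9. That is 16.1% of these genes, against 1.81% of the 27025 genes with a window. The share of windows was 13.2% of 38 among these genes and 1.63% of 32851 overall. With 1 mismatch allowed, 36.8% of the members' windows and 21.1% of all windows held a match. Such shares do not show whether SRF binds a given match, those of Acta2 included, and binding was not tested. Of the 5 genes with a box, Actg1 and Cnn2 were higher in Tgfbr1/2 DKO libraries, while Vcl, Myl6 and Myl9 did not pass the test there (0.30, 0.67 and -0.81 on the log2 scale). Myh11, Actg2, Tagln, Actb and Pxn had no window.

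By RNA level, genes of non-muscle proteins led the 36 in all 4 groups. Gene totals do not separate muscle from non-muscle forms made by the same gene. Levels between genes are compared as CPM per kilobase of merged exon (GENCODE vM21). By mean per-length level the leading genes were Tpm4, Vim and Actb in both Postn-lineage groups, and Actb led in both Tcf21-lineage groups. Tpm4, a short non-muscle tropomyosin, averaged 653 CPM per kb in Smad2/3 DKO, 666 in Postn-Cre control, 518 in Tgfbr1/2 DKO and 267 in Tcf21-Cre control libraries. Acta2 ranked 17 of 36 in Smad2/3 DKO, 16 in Postn-Cre control, 9 in Tgfbr1/2 DKO and 15 in Tcf21-Cre control libraries, at 12.6, 15.97, 63.1 and 31.4 CPM per kb. Tagln, which codes for transgelin (SM22), an actin-binding protein of smooth muscle and myofibroblasts, ranked between 24 and 28.

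**Figure D1:**
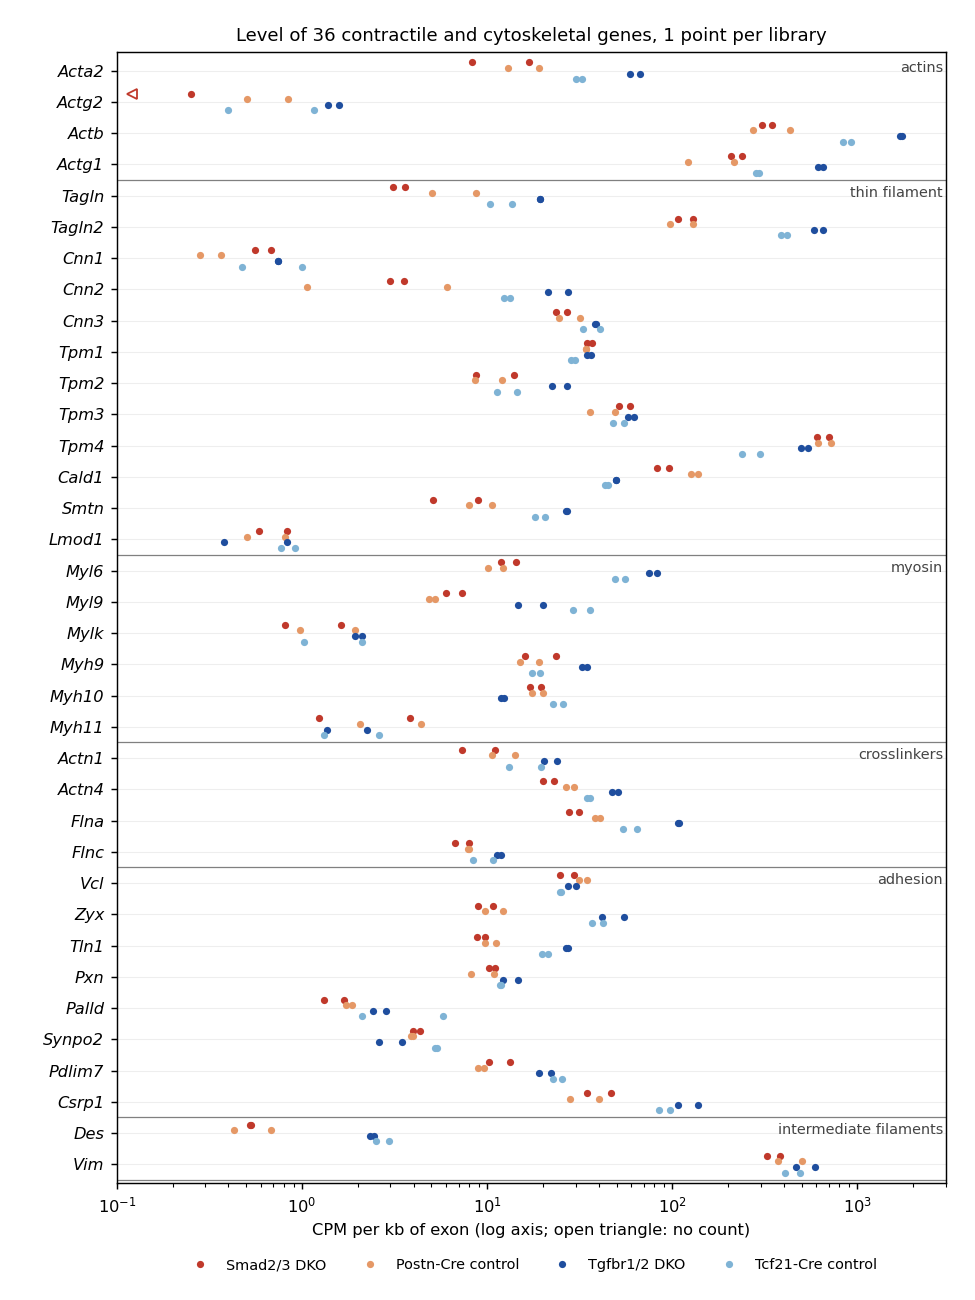
The plot of levels gives CPM per kb of exon (log axis) for the 36 genes, with 1 point per library coloured by group and genes ordered by role. Actb, Actg1, Tagln2, Tpm4 and Vim lie furthest right, Actg2, Cnn1, Lmod1 and Des furthest left, and the open triangle marks the library with no Actg2 count.

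Some genes of differentiated smooth muscle had low counts. Actg2 (enteric smooth muscle actin), Cnn1 (calponin 1) and Lmod1 (leiomodin 1, an actin filament nucleator) were below 5 CPM in every library, while Myh11 had 9.36 to 33.2 CPM and Smtn 22.4 to 118 CPM. Actg2 had 10 and 0 counts in Smad2/3 DKO libraries and 34 and 18 in Postn-Cre control libraries, and 80 and 64 in Tgfbr1/2 DKO libraries against 18 and 53 in Tcf21-Cre control libraries. The SE of its log2 fold change was 1.43 and 0.60 in these comparisons. By contrast 13 genes were at or above 100 CPM in every library, among them Actb, Actg1, Tpm4, Cald1, Myh9, Flna, Vcl and Vim. The actins are near-identical in coding sequence, and how reads shared between them were assigned is not given in the sources used here, so their single values are uncertain.

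The sorted cells carried the markers of fibroblasts in quantity. The 10 fibroblast markers summed to 17710 and 17191 CPM in Smad2/3 DKO, 21588 and 18734 in Postn-Cre control, 30911 and 29355 in Tgfbr1/2 DKO, and 32861 and 39324 in Tcf21-Cre control libraries. Acta2 and Tagln, the markers of the myofibroblast state, were present in all 8 libraries, at 18.2 to 146.9 and 6.15 to 38.6 CPM. In bulk RNA, fewer cells of a type and less RNA per cell cannot be told apart.

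In the Smad2/3 DKO libraries, no contractile or cytoskeletal gene was called against the Postn-Cre control. None of the 36 passed the test in either direction, while 71 of all 15760 genes tested were higher (0.451%) and 133 were lower (0.844%). At an unadjusted p under 0.05 there were 4 of the 36, namely Cald1, Flna, Actn4 and Tagln, all with lower values. Of the 15760 genes tested, 2137 were under it. DESeq2 called 1 of the 36, Cald1, beside 744 genes called in either direction. The members' median log2 fold change was -0.17, beside 0.01 for all genes, with 14 above 0 and 22 below. This rests on single control libraries: without Postn-Cre control HK3 the median was 0.02 with 20 above 0, and Actg1 was called higher (0.84, adjusted p = 0.0401), while without HK4 it was -0.36 with 7 above 0. Without Smad2/3 DKO HK15 it was -0.27 and without HK16 -0.03. Of the calls over all genes 34.8% were higher, and 45.9% on library totals alone. Unless another tool is named, an adjusted p comes from edgeR's quasi-likelihood test with Benjamini-Hochberg adjustment over all genes tested. Values after ± beside log2 fold changes are standard errors (SE).

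Among the thin filament genes, Cald1 had the smallest p. It codes for caldesmon, which binds actin and tropomyosin and damps myosin. Cald1 had 996 and 1160 CPM in Smad2/3 DKO libraries, against 1513 and 1655 CPM in Postn-Cre control libraries, so the groups did not overlap. The log2 fold change was -0.61 ± 0.14 (adjusted p = 0.0764). Tagln had 7.13 and 6.15 CPM in Smad2/3 DKO libraries, against 17.2 and 9.96 CPM in Postn-Cre control libraries, a log2 fold change of -1.10 ± 0.41 (adjusted p = 0.259). The groups did not overlap, but the controls differed more from each other than the lower of them did from the knockouts. Tropomyosins lay close to their controls, from Tpm4 at -0.09 to Tpm3 at 0.32.

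Acta2 itself did not separate the groups. It had 36.9 and 18.2 CPM in Smad2/3 DKO libraries, against 41.7 and 28.4 CPM in Postn-Cre control libraries, a log2 fold change of -0.41 ± 0.35 (adjusted p = 0.68). The ranges overlap, and the value moved between -1.0 and 0.01 when 1 library was left out. Of the actins, Actg2 had the smallest p, with 0.392 and 0 CPM in Smad2/3 DKO libraries, against 1.31 and 0.783 CPM in Postn-Cre control libraries (adjusted p = 0.518). Actb was at -0.18 and Actg1 at 0.34.

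The 4 crosslinkers, which tie actin filaments into bundles and networks, were all below 0, from Actn1 at -0.50 to Flnc at -0.17, and none passed the test. Flna, which codes for filamin A, had 293 and 260 CPM in Smad2/3 DKO libraries, against 382 and 359 CPM in Postn-Cre control libraries. Its groups did not overlap, and the log2 fold change was -0.48 ± 0.15 (adjusted p = 0.161). Actn4 (alpha-actinin 4) was at -0.45 ± 0.17 (adjusted p = 0.259).

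Myosin, adhesion and intermediate filament genes gave no call either. The smallest p in each group belonged to Myh11, the smooth muscle myosin heavy chain (29.2 and 9.36 CPM in Smad2/3 DKO libraries, against 33.2 and 15.6 CPM in Postn-Cre control libraries), to Vcl and to Vim. Vcl, which codes for vinculin, the adaptor that links talin to actin, had 240.5 and 202 CPM in Smad2/3 DKO libraries, against 284 and 256 CPM in Postn-Cre control libraries. Its log2 fold change was -0.35 ± 0.16 (adjusted p = 0.381). Vim (vimentin, the intermediate filament of fibroblasts) had 1804 and 1543 CPM in Smad2/3 DKO libraries, against 2376 and 1771 CPM in Postn-Cre control libraries (adjusted p = 0.372). Over the 36 genes, the Smad2/3 DKO libraries were both above the controls for 5 (background 25.4%) and both below for 7 (background 18.9%), shares of 13.9% and 19.4%, below and near the background.

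In the Tgfbr1/2 DKO libraries, part of the same apparatus was higher than in their controls, by about 2-fold. Of the 36 genes, 8 were higher in Tgfbr1/2 DKO than in Tcf21-Cre control libraries (22.2%), beside 440 of the 16658 genes tested (2.64%), and 1 was lower (2.78%), beside 219 genes (1.31%). The higher genes were Acta2, Actb, Actg1, Cnn2, Tpm2, Tpm4, Myh9 and Flna, and the lower one was Myh10. The members' median log2 fold change was 0.42, beside -0.01 for all genes, with 28 above 0 and 8 below. On library totals alone the median was 0.33, beside -0.09 for all genes, with 28 above 0 and the same counts of members called. Of the calls over all genes 66.8% were higher, and 56.9% on library totals alone. In CPM, both Tgfbr1/2 DKO libraries were above both controls for 23 of the 36 (63.9%, background 21.8%) and below both for 5 (13.9%, background 29.4%).

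**Figure D2:**
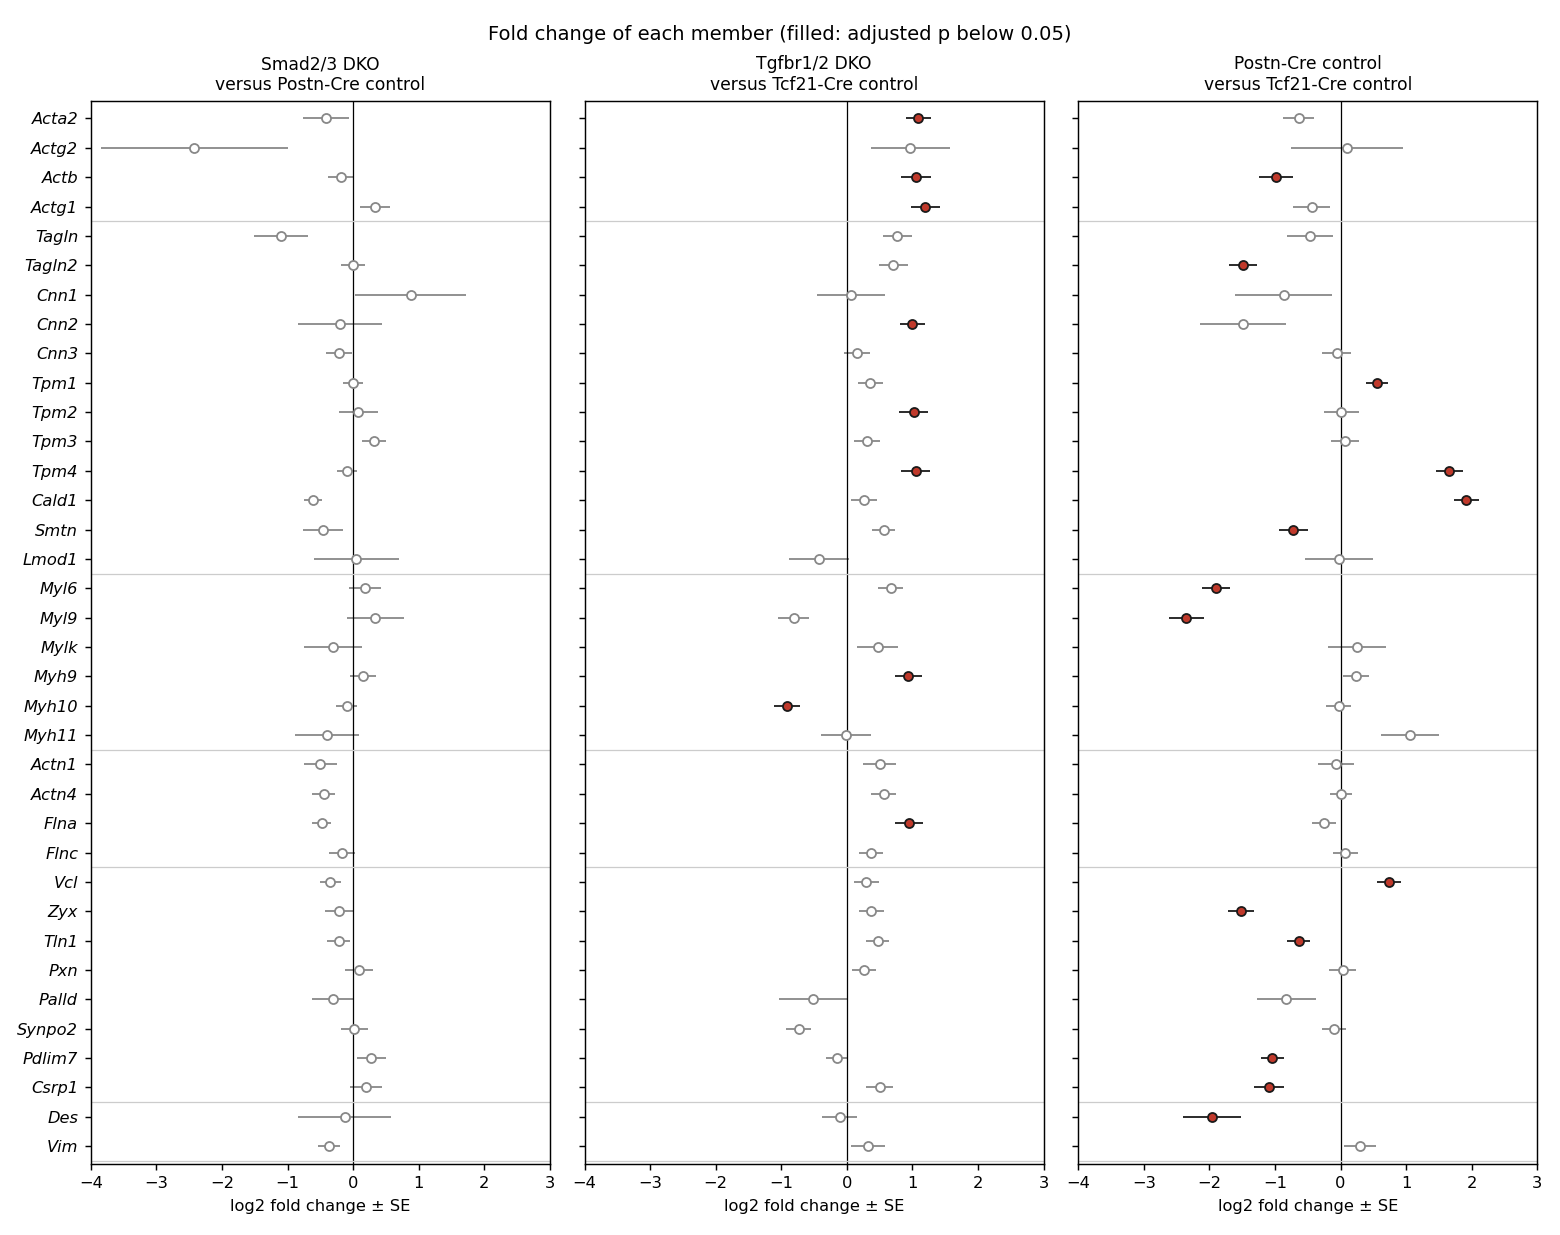
Log2 fold change ± SE of each gene in 3 comparisons, with genes ordered by role and filled points for an adjusted p below 0.05. No point is filled for Smad2/3 DKO, while 8 points to the right of 0 and Myh10 to its left are filled for Tgfbr1/2 DKO.

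All 4 actins were above 0 and 3 were called. Acta2 had 130.5 and 146.9 CPM in Tgfbr1/2 DKO libraries, against 71.6 and 66.5 CPM in Tcf21-Cre control libraries, a log2 fold change of 1.09 ± 0.19 (adjusted p = 0.014). Actg1, which codes for cytoplasmic gamma actin, had 1620 and 1723 CPM in Tgfbr1/2 DKO libraries, against 756 and 783 CPM in Tcf21-Cre control libraries (1.2 ± 0.22, adjusted p = 0.0185). Actb, which codes for cytoplasmic beta actin, had 4669 and 4553 CPM in Tgfbr1/2 DKO libraries, against 2461 and 2250 CPM in Tcf21-Cre control libraries (1.05 ± 0.23, adjusted p = 0.0321). The 3 rose by similar factors, so the per-length ratio of Acta2 to Actb was 0.0341 and 0.0394 in Tgfbr1/2 DKO libraries and 0.0355 and 0.0361 in Tcf21-Cre control libraries. The actins together held 6422 and 6425 CPM in Tgfbr1/2 DKO libraries, against 3288 and 3101 CPM in Tcf21-Cre control libraries.

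Of the 12 thin filament genes, 3 were called, all higher. Cnn2 (calponin 2, the form of non-muscle cells) had 67.5 and 52.2 CPM in Tgfbr1/2 DKO libraries, against 30.4 and 32.5 CPM in Tcf21-Cre control libraries (1.00 ± 0.19, adjusted p = 0.0221). Tpm4 had 1088 and 1197 CPM in Tgfbr1/2 DKO libraries, against 655 and 522 CPM in Tcf21-Cre control libraries (1.05 ± 0.22, adjusted p = 0.0289). Tpm2, which codes for beta tropomyosin, had 65.1 and 78.8 CPM in Tgfbr1/2 DKO libraries, against 32.9 and 42.1 CPM in Tcf21-Cre control libraries (1.02 ± 0.22, adjusted p = 0.0345). In none of these did the groups overlap. The other tropomyosins did not pass, with Tpm1 at 0.36 and Tpm3 at 0.31. Tagln had 38.6 and 38.4 CPM in Tgfbr1/2 DKO libraries, against 20.7 and 26.9 CPM in Tcf21-Cre control libraries, a log2 fold change of 0.77 ± 0.22 that missed the threshold (adjusted p = 0.0884). Tagln2 (0.71), Smtn (0.56) and Cald1 (0.26) were also above 0 without passing.

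The non-muscle myosin heavy chains moved in opposite directions. Myh9 codes for the heavy chain of non-muscle myosin IIA and Myh10 for that of myosin IIB, which differ in motor speed and in the time they stay bound to actin. Myh9 had 419 and 446 CPM in Tgfbr1/2 DKO libraries, against 225 and 250.6 CPM in Tcf21-Cre control libraries (0.94 ± 0.21, adjusted p = 0.0321). Myh10 had 123 and 129 CPM in Tgfbr1/2 DKO libraries, against 236 and 267 CPM in Tcf21-Cre control libraries (-0.91 ± 0.20, adjusted p = 0.0303). The per-length ratio of Myh9 to Myh10, which does not depend on the scaling of a library, was 2.75 and 2.79 in Tgfbr1/2 DKO libraries, against 0.77 and 0.759 in Tcf21-Cre control libraries. In the other run it was 1.2 and 0.942 in Smad2/3 DKO libraries, against 0.953 and 0.862 in Postn-Cre control libraries. This ratio was chosen after the values were seen. Of the light chains, Myl6 was at 0.67 ± 0.19 (adjusted p = 0.0828) and Myl9, the regulatory light chain, at -0.81 ± 0.24 (adjusted p = 0.0928).

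**Figure D3:**
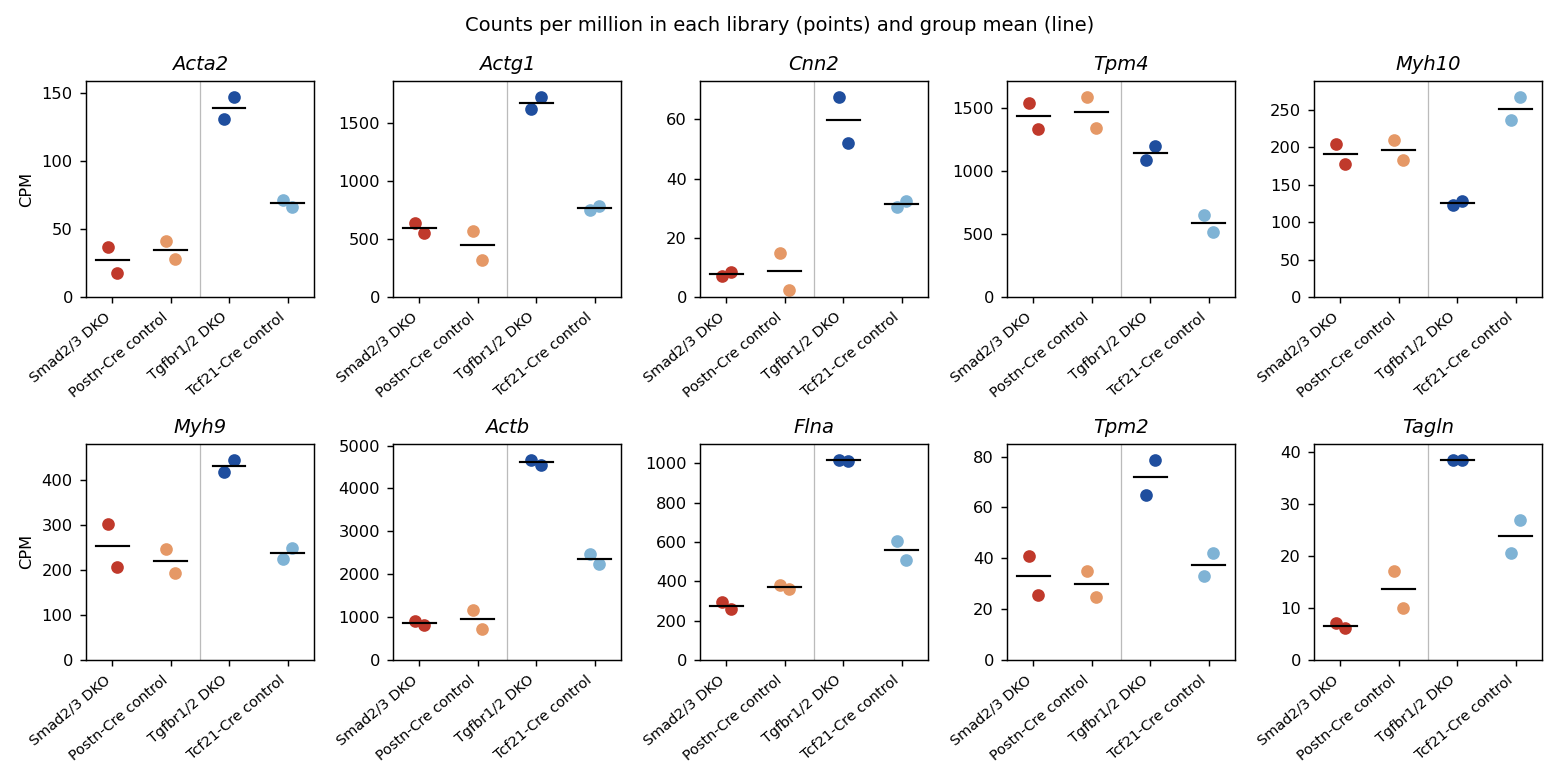
CPM of the 9 genes called in the Tgfbr1/2 comparison and of Tagln, with 1 point per library, a line at the group mean and a y axis from 0. The Tgfbr1/2 DKO points lie above the Tcf21-Cre control points in every panel but Myh10, where they lie below, and Smad2/3 DKO points overlap the Postn-Cre control points in every panel but Flna and Tagln.

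Crosslinkers gave 1 call and adhesion genes none. Flna had 1019 and 1014 CPM in Tgfbr1/2 DKO libraries, against 605 and 510 CPM in Tcf21-Cre control libraries (0.95 ± 0.21, adjusted p = 0.0336), with no overlap. Actn4 (0.56), Actn1 (0.50) and Flnc (0.37) were above 0 and did not pass. Of the 8 adhesion genes 5 were above 0 and 3 below, from Synpo2 at -0.73 to Csrp1 at 0.50. Synpo2, which codes for the actin-bundling protein synaptopodin 2, had 45.6 and 34.2 CPM in Tgfbr1/2 DKO libraries, against 68.4 and 70.2 CPM in Tcf21-Cre control libraries (-0.73 ± 0.19, adjusted p = 0.063). Vim had 2205 and 2794 CPM in Tgfbr1/2 DKO libraries, against 1923 and 2325 CPM in Tcf21-Cre control libraries, which overlap (adjusted p = 0.536), and Des was at -0.11.

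These 9 calls rest on 2 libraries a group, and each was lost without at least 2 of the 4 libraries in turn. Actb, Myh9 and Flna were lost without any of them. Without Tgfbr1/2 DKO HK4 the calls of Acta2, Actg1, Tpm2, Tpm4 and Myh10 were lost too, and without HK2 those of Cnn2 and Myh10. Without Tcf21-Cre control HK6 those of Actg1, Cnn2, Tpm2 and Tpm4 were lost, and without HK7 those of Acta2, Actg1, Tpm4 and Myh10. The count of higher genes was then 1 to 4, and 4 in a fit of all 8 libraries, where Acta2 (adjusted p = 0.112), Cnn2 (0.472), Tpm2 (0.12) and Myh9 (0.0619) missed the threshold. Without robust estimation Tpm2 missed it (0.0575). Their direction held throughout: without any 1 library the log2 fold change stayed between 0.81 and 1.32 for the 8 higher genes and between -1.04 and -0.76 for Myh10.

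Markers of macrophages moved with this result. The fibroblast sums given above lay below the controls, with none of 10 called and a list median log2 fold change of -0.11. The 9 macrophage markers found of 10 summed to 193.7 and 212.7 CPM in Tgfbr1/2 DKO libraries, against 54.3 and 82.5 CPM in Tcf21-Cre control libraries, with none at 0, and 2 of the 9 were called higher (Cd74, 1.61 ± 0.33, adjusted p = 0.0379, and Csf1r, 1.34 ± 0.30, adjusted p = 0.0381). The 3 markers with the highest means were Lyz2, Cd74 and Cd68. Lyz2 had 82.5 and 90.6 CPM in Tgfbr1/2 DKO libraries, against 9.9 and 26.55 CPM in Tcf21-Cre control libraries, and Cd74 had 43.7 and 57.1 against 12.7 and 22.2 CPM. Cd68 overlapped between the groups. The part of these cells in the higher actin, calponin, tropomyosin, myosin and filamin genes was not tested. Endothelial markers summed to 525 and 496 CPM in Tgfbr1/2 DKO libraries, against 441 and 397 CPM in Tcf21-Cre control libraries. Of the 10, 1 was called higher, Eng, with 310.5 and 279 against 189.7 and 172 CPM. Tek, the next by mean, went the other way (88.05 and 81.8 against 163 and 124 CPM). Cdh5, the third, had 52.0 and 61.6 against 32.0 and 45.6 CPM, and the list median log2 fold change was 0.45. Pericyte markers (1066 and 1097 against 1149 and 736 CPM), cardiomyocyte markers (684 and 588 against 584 and 597 CPM) and smooth muscle markers outside the 36 genes (89.3 and 78.2 against 87.9 and 71.7 CPM) overlapped between the groups.

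**Figure D4:**
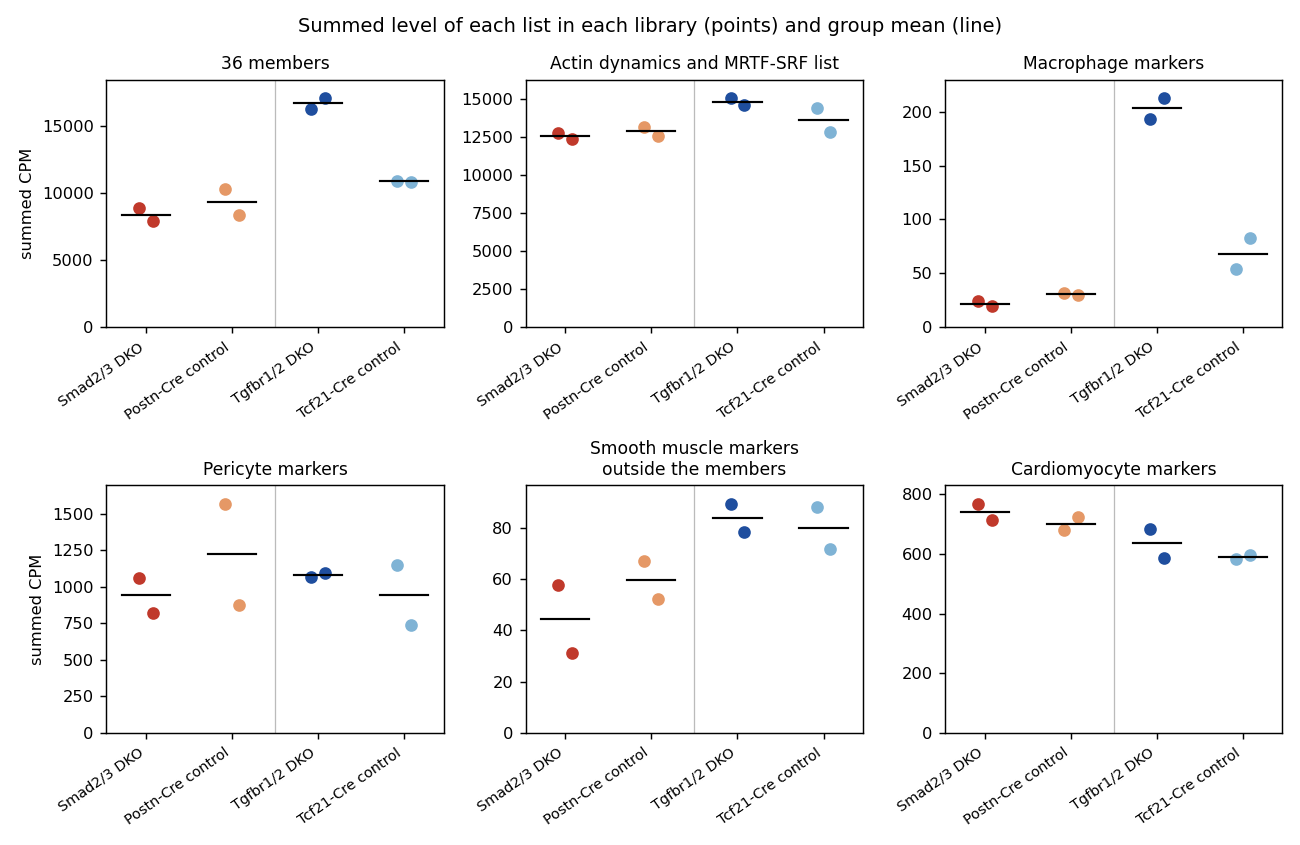
Summed CPM of the 36 genes, of the actin dynamics list and of markers of other cell types, with 1 point per library, a line at the group mean and y axes from 0. Tgfbr1/2 DKO libraries are above Tcf21-Cre control libraries for the 36 genes (16261 and 17054 against 10914 and 10844) and for macrophage markers, and overlap them for pericyte, smooth muscle and cardiomyocyte markers.

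In the Smad2/3 comparison the sums of endothelial and macrophage markers lay below the controls, with no marker of either called. The fibroblast sums given above also lay below, with 2 of 10 called lower, the collagen genes Col1a1 (-1.69 ± 0.17, adjusted p = 0.0011) and Col1a2 (-1.44 ± 0.14, adjusted p = 0.0011). The sums of pericyte, cardiomyocyte and smooth muscle markers outside the 36 genes overlapped. Most of the cardiomyocyte sum (768 and 713 CPM in Smad2/3 DKO, 679 and 723 in Postn-Cre control libraries) was Atp2a2. Atp2a2 had 634 and 582 CPM in Smad2/3 DKO libraries, against 451 and 534 CPM in Postn-Cre control libraries. Over the 15 cardiomyocyte markers tested the median log2 fold change was -1.11, with none called. Endothelial markers summed to 217 and 144 CPM in Smad2/3 DKO libraries, against 432 and 227 CPM in Postn-Cre control libraries, and macrophage markers to 24.25 and 19.6 against 31.5 and 29.5 CPM, with 3 and 2 of the 9 at 0 in Smad2/3 DKO libraries and 1 in each Postn-Cre control library. Pericyte markers, led by Rgs5, summed to 1062 and 822 CPM in Smad2/3 DKO libraries, against 1568 and 878 CPM in Postn-Cre control libraries, with 1 of 11 called lower (Kcnj8). The part of these cells in the values of the 36 genes, of which pericytes also express Tagln and Acta2, was not tested. Gene length moved little in both comparisons: from the shortest to the longest of 5 length classes the median log2 fold change of all genes was 0.13 to -0.07 for Smad2/3 DKO and 0.09 to -0.15 for Tgfbr1/2 DKO.

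The difference between the knockouts was tested directly, as the Smad2/3 effect minus the Tgfbr1/2 effect. Of the 36 genes, 1 had a lower Smad2/3 effect, Flna, beside 208 of 17770 genes tested (1.17%), and none had a higher one, beside 118 genes (0.664%). At an unadjusted p under 0.05 there were 20 of the 36, against 3092 of the 17770 genes tested. DESeq2 called 7 of the 36 lower and none higher, beside 1123 genes called in either direction. The difference for Flna was -1.44 ± 0.24 (adjusted p = 0.0176), from -0.48 in Smad2/3 DKO and 0.95 in Tgfbr1/2 DKO libraries. It was lost without either Smad2/3 DKO library or without Postn-Cre control HK3 (adjusted p up to 0.0786).

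Other members had the same sign without passing. The differences were -1.87 ± 0.44 for Tagln (adjusted p = 0.0625), -1.01 ± 0.24 for Actn4 (0.0643), -1.14 ± 0.28 for Tpm4 (0.0665), -1.25 ± 0.33 for Actb (0.0847) and -1.51 ± 0.43 for Acta2 (0.106). The smallest p among adhesion genes was that of Tln1 (talin 1, which ties integrins to actin) at -0.71 ± 0.23 (adjusted p = 0.154), and Vim was at -0.70 ± 0.34 (0.317). Myh10 had the smallest p among myosin genes and the opposite sign, 0.81 ± 0.26 (adjusted p = 0.139). The median difference over the 36 genes was -0.67, beside 0.01 for all genes, with 29 below 0, and -0.38 with 24 below 0 without Postn-Cre control HK3. Of all calls 36.2% were higher, and 49.7% on library totals alone, where the median over all genes was 0.16. A different Cre driver and run stand behind each of the effects, so these cannot be told apart from the targeted genes.

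Between the control groups 5612 genes passed the test, against 204 for Smad2/3 DKO and 659 for Tgfbr1/2 DKO. Leaving out 1 library gave 3177 to 6801 between the controls, 105 to 297 for Smad2/3 DKO and 271 to 484 for Tgfbr1/2 DKO. Postn-Cre control libraries were higher than Tcf21-Cre control libraries for 4 of the 36 genes (11.1%), beside 2752 of 16568 genes tested (16.6%), and lower for 10 (27.8%), beside 2860 genes (17.3%). The higher genes were Cald1, Tpm4, Vcl and Tpm1, and the lower ones Myl9, Myl6, Zyx, Tagln2, Pdlim7, Csrp1, Des, Actb, Tln1 and Smtn. The driver and the run change together here and cannot be told apart.

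Cald1 had 1513 and 1655 CPM in Postn-Cre control libraries, against 540 and 518.5 CPM in Tcf21-Cre control libraries (1.92 ± 0.19, adjusted p = 0.00145). Tpm4 had 1589 and 1344 CPM in Postn-Cre control libraries, against 655 and 522 CPM in Tcf21-Cre control libraries (1.66 ± 0.21, adjusted p = 0.00222). Both myosin light chains were lower, Myl6, the essential chain, with 38.7 and 32.1 CPM in Postn-Cre control libraries, against 156.5 and 176 CPM in Tcf21-Cre control libraries (-1.90 ± 0.21, adjusted p = 0.00175). Myl9 had 6.08 and 5.61 CPM in Postn-Cre control libraries, against 41.8 and 33.7 CPM in Tcf21-Cre control libraries (-2.35 ± 0.27, adjusted p = 0.00186). In these 4 genes the groups lay far apart, the nearest pair of libraries differing by more than 2-fold.

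Adhesion genes supplied 5 of the 14 calls. Zyx, which codes for zyxin, a LIM protein of strained focal adhesions, had 65.3 and 52.2 CPM in Postn-Cre control libraries, against 227 and 198 CPM in Tcf21-Cre control libraries (-1.52 ± 0.20, adjusted p = 0.00245). Pdlim7, a PDZ-LIM protein, had 46.6 and 43.1 CPM in Postn-Cre control libraries, against 123 and 110.2 CPM in Tcf21-Cre control libraries (-1.04 ± 0.18, adjusted p = 0.00595). Csrp1, a LIM protein of actin bundles, had 78.3 and 54.9 CPM in Postn-Cre control libraries, against 166.5 and 189.9 CPM in Tcf21-Cre control libraries (-1.09 ± 0.23, adjusted p = 0.0115). Talin and vinculin, which bind each other, went opposite ways. Tln1 had 109.9 and 94.8 CPM in Postn-Cre control libraries, against 209.7 and 193.7 CPM in Tcf21-Cre control libraries (-0.64 ± 0.18, adjusted p = 0.0306). Vcl had 284 and 256 CPM in Postn-Cre control libraries, against 204.1 and 203.7 CPM in Tcf21-Cre control libraries (0.74 ± 0.18, adjusted p = 0.0172).

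The remaining calls were spread over the other roles. Tagln2 (transgelin 2, the form of non-muscle cells) had 269 and 203 CPM in Postn-Cre control libraries, against 871 and 802 CPM in Tcf21-Cre control libraries (-1.49 ± 0.21, adjusted p = 0.00291). Actb had 1164 and 728 CPM in Postn-Cre control libraries, against 2461 and 2250 CPM in Tcf21-Cre control libraries (-0.98 ± 0.26, adjusted p = 0.0248). Smtn (smoothelin) had 46.5 and 34.7 CPM in Postn-Cre control libraries, against 89.96 and 79.0 CPM in Tcf21-Cre control libraries (-0.72 ± 0.22, adjusted p = 0.0403). Non-muscle and smooth muscle forms were thus both among the lower genes. Des (desmin, the intermediate filament of muscle) had 2.54 and 1.61 CPM in Postn-Cre control libraries, against 11.03 and 9.45 CPM in Tcf21-Cre control libraries (-1.96 ± 0.44, adjusted p = 0.0131). Tpm1 (alpha tropomyosin) had 220.9 and 221.1 CPM in Postn-Cre control libraries, against 194.4 and 184.8 CPM in Tcf21-Cre control libraries (0.56 ± 0.17, adjusted p = 0.039). No group overlapped in these genes. Leaving out 1 library lost Tpm1 in all 4 cases, Smtn and Tln1 without any library but Postn-Cre control HK3, Des without either Tcf21-Cre control library, Vcl without Postn-Cre control HK3 (0.62, adjusted p = 0.087) and Actb without HK4 (-0.68, adjusted p = 0.145). Acta2 had 41.7 and 28.4 CPM in Postn-Cre control libraries, against 71.6 and 66.5 CPM in Tcf21-Cre control libraries, which did not pass (-0.64 ± 0.24, adjusted p = 0.0786), and Tagln was at -0.47.

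Both scaling and gene length moved with this comparison. The median over all genes was -0.07 with TMM scaling (edgeR's trimmed mean of M values) and -0.41 on library totals alone, and the share of calls that were higher was 49.0% and 27.8%. On library totals Tpm1 (adjusted p = 0.367) and Vcl (0.122) were not called, and Tpm1 was not called without the filter on low counts (0.0685). The median log2 fold change of all genes ran from -0.37 in the shortest to 0.31 in the longest of 5 length classes, and Cald1 (12041 bases of merged exon) and Vcl (8191) are long while Myl9 (1162) and Tagln2 (2082) are short. Macrophage markers summed to 31.5 and 29.5 CPM in Postn-Cre control libraries, against 54.3 and 82.5 CPM in Tcf21-Cre control libraries, with 2 of 8 tested called lower. The part of length and of these cells in the calls was not tested.

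The wider actin machinery was followed with 62 genes of actin turnover, integrin linkage and the MRTF-SRF pathway, among others, of which 60 were found and Diaph1 and Diaph3 were not analysed here. In the Tgfbr1/2 comparison 6 of 60 were higher and 1 lower, beside the same 2.64% and 1.31% of all genes, with a list median of 0.14. Pfn1 (profilin 1, which feeds actin monomers to growing filaments) had 427 and 359 CPM in Tgfbr1/2 DKO libraries, against 160.4 and 156 CPM in Tcf21-Cre control libraries (1.39 ± 0.19, adjusted p = 0.00514). Itga5, the fibronectin receptor subunit, had 475.5 and 611 CPM in Tgfbr1/2 DKO libraries, against 232 and 165 CPM in Tcf21-Cre control libraries (1.55 ± 0.24, adjusted p = 0.00877). The transcription factor gene Srf had 80.75 and 75.0 CPM in Tgfbr1/2 DKO libraries, against 41.35 and 39.9 CPM in Tcf21-Cre control libraries (1.02 ± 0.18, adjusted p = 0.0146).

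The other higher genes of this list sever, cap or disassemble actin filaments. They were Cfl1 (cofilin 1, 1.09 ± 0.20, adjusted p = 0.0176), Capg (1.09 ± 0.20, 0.0193) and Wdr1 (0.99 ± 0.17, 0.0151). Ppp1r12b, a targeting subunit of myosin phosphatase, was lower (-1.03 ± 0.19, adjusted p = 0.0186). The genes of the MRTF cofactors did not pass, with Mkl1 (MRTF-A) at 0.07 and Mkl2 (MRTF-B) at -0.27.

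In the Smad2/3 comparison 1 of 59 genes of this list was lower and none higher, beside 0.844% and 0.451% of all genes, with a median of -0.03. Pdlim5, a PDZ-LIM protein of actin fibres, had 253 and 230 CPM in Smad2/3 DKO libraries, against 401 and 378 CPM in Postn-Cre control libraries (-0.75 ± 0.15, adjusted p = 0.0367). The next smallest p-values belonged to Mkl2 (-0.83, adjusted p = 0.0667) and Ankrd1 (1.5, 0.126), and Srf was at 0.41 (0.629). For the difference between the knockouts 3 of 60 were lower, beside 1.17% of all genes, namely Itga5 (-1.96 ± 0.30, adjusted p = 0.0126), Limk1 (the kinase that inactivates cofilin, -2.41 ± 0.48, 0.0325) and Arpc1b (an Arp2/3 complex subunit, -1.16 ± 0.25, 0.0426). Between the control groups 20 of 59 were higher and 19 lower in Postn-Cre control libraries, beside 16.6% and 17.3% of all genes, led by Tmsb10 (-2.38), Itga5 (1.98) and Rock1 (2.21).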

How the data were processed

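Gene totals of 8 libraries in 4 groups, taken from the sample titles, were used. For each run the authors deposited a table of expected counts for 38087 Ensembl entries, called raw in the file headers. The build was mm10, per the submitters' processing notes. For the aligner, the counter, any use of strand and the treatment of reads that match several genes, the answer is not given in the sources used here. RNA was amplified before library preparation, per the labels' protocols, so counting floors cover counting error only. Expected counts were rounded and entries with the same symbol summed (278 symbols). Of the deposited identifiers 95.3% were in GENCODE vM21, the source of positions and exon lengths. The authors also deposited a log2 fold change per gene, which had the same sign as the one computed here for 29 of the 36 genes in the Smad2/3 comparison and 34 in the Tgfbr1/2 comparison. Opposite signs were found only for Cnn2 in the former (0.36 deposited, -0.2 here) and Cnn1 in the latter (-0.10 deposited, 0.07 here). The remaining genes had 0.00 as the deposited value or as the value here.

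edgeR 4.0.16 (R 4.3.3) was run on the 4 libraries of a comparison, or on all 8 for the difference. Low counts were removed with filterByExpr, libraries were scaled by TMM, and the two-sided quasi-likelihood F test with robust dispersions was used at an adjusted p threshold of 0.05. The SE was derived from the F statistic. The code was tested on simulated counts. Alternatives were DESeq2 1.42.0, its size factors within edgeR, no filter, no robust estimation, unsummed entries, a fit of all 8 libraries and leaving out each library. A fit on library totals was chosen after seeing the data. Leaving out a library leaves 1 in its group, which is then assumed to vary like the others. The members and lists were chosen with earlier results of these data known. Described in full were members called in any comparison, Acta2, Tagln and the smallest p in each role group. Of the actin dynamics list the called genes and 3 smallest p were named, and of each list of other cell types the called genes and the 3 highest means where it moved with a result.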

Additional observations from a re-analysis of the deposited data

Results flagged for a closer look

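Flna, which codes for filamin A, differed between the knockouts by the test of the difference itself. The Smad2/3 effect minus the Tgfbr1/2 effect was -1.44 ± 0.24 on the log2 scale (edgeR quasi-likelihood test, adjusted p = 0.0176). Leaving out 1 library in turn gave -1.54 to -1.36. As given above, the call was lost without either Smad2/3 DKO library or without Postn-Cre control HK3. In CPM, from the same values, both Smad2/3 DKO libraries were below and both Tgfbr1/2 DKO libraries above their controls. Run and Cre driver differ between the effects as well and cannot be told apart from the targeted genes.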

How the results depend on the processing

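No paired analysis was possible because the groups compared share fewer than 2 replicate numbers. Counts of members called moved in these cases. For Smad2/3 DKO, lower: 1 without the filter and 1 with DESeq2 (Cald1 in both, adjusted p = 0.00347 and 0.00891), and higher: 0 to 1 leaving out a library. For Tgfbr1/2 DKO, higher: 4 in the fit of all 8 libraries and 1 to 4 leaving out a library. For Tgfbr1/2 DKO, lower: 3 without the filter, 2 with DESeq2 and 0 to 2 leaving out a library. Between the controls, higher: 2 on library totals and 2 to 4 leaving out a library. For the difference, lower: 8 without the filter, 7 with DESeq2 and 0 to 4 leaving out a library. Over all genes, calls numbered 819 without the filter and 744 with DESeq2 against 204 for Smad2/3 DKO, 1233, 1129 and, in the fit of all 8 libraries, 299 against 659 for Tgfbr1/2 DKO, and 1194 and 1123 against 326 for the difference. Leaving out a library gave 105 (without Smad2/3 DKO HK15) to 297 for Smad2/3 DKO, 271 (without Tgfbr1/2 DKO HK4) to 484 for Tgfbr1/2 DKO, 3177 (without Tcf21-Cre control HK7) to 6801 against 5612 between the controls, and 89 (without Tgfbr1/2 DKO HK4) to 302 for the difference. The cause of these shifts was not tested.

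Of 144 member values, 38 changed sign in at least 1 setting after rounding to 2 decimals, and none of them was called with all libraries in the fit. Values that round to 0.00, such as Tagln2 and Tpm1 for Smad2/3 DKO, have no sign on this scale and are not counted. Between the controls, the size factors of the DESeq2 type and DESeq2 each gave 0.03 for Lmod1 and for Myh10, and no filter gave -0.03 for Tpm2, -0.03 for Actn4 and -0.01 for Pxn. The fit of all 8 libraries gave -0.04 for Tpm2, -0.04 for Actn4 and -0.02 for Pxn there, and 0.01 for Myh11 in Tgfbr1/2 DKO. Library totals gave -0.21 for Actg2, -0.32 for Tpm2, -0.27 for Tpm3, -0.11 for Mylk, -0.11 for Myh9, -0.33 for Actn4, -0.27 for Flnc, -0.31 for Pxn and -0.04 for Vim between the controls, and 0.12 for Des in the difference.

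Leaving out 1 library gave, for Smad2/3 DKO, Acta2 -1.0 to 0.01, Actb -0.49 to 0.22, Actg1 -0.02 to 0.84, Cnn2 -0.97 to 1.58, Tpm2 -0.28 to 0.38, Tpm4 -0.21 to 0.06, Lmod1 -0.23 to 0.41, Mylk -0.89 to 0.29, Myh9 -0.14 to 0.39, Myh10 -0.20 to 0.02, Myh11 -1.43 to 0.26, Synpo2 -0.03 to 0.07, Csrp1 -0.04 to 0.50, Pxn -0.10 to 0.33 and Des -0.43 to 0.26. For Tgfbr1/2 DKO it gave Myh11 -0.49 to 0.51, Cnn1 -0.39 to 0.78, Cnn3 -0.04 to 0.38 and Palld -1.09 to 0.47. Between the controls it gave Actg2 -0.51 to 1.13, Tpm2 -0.31 to 0.23, Tpm3 -0.22 to 0.27, Lmod1 -0.39 to 0.23, Mylk -0.38 to 0.79, Actn4 -0.11 to 0.07, Actn1 -0.37 to 0.29, Pxn -0.23 to 0.22, Cnn3 -0.30 to 0.15, Myh10 -0.17 to 0.10, Flnc -0.07 to 0.20 and Palld -1.41 to 0.13. For the difference it gave Myh11 -1.45 to 0.27, Cnn2 -1.99 to 0.58, Pxn -0.39 to 0.06, Des -0.35 to 0.36 and Palld -0.78 to 0.75. Depth limits the members with low counts, among them Actg2, Cnn1, Lmod1 and, in the Smad2/3 run, Des.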
